A study of Caenorhabditis elegans with 3 samples.

Results

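The major sperm protein genes of *Caenorhabditis elegans* were taken as all array features whose gene symbol in the platform annotation is msp- followed by a number. The rule found 30 genes among the 19292 rows that could be tested, each with 1 feature and each measured on all 3 arrays. The 3 two-colour arrays compared RNA of late L4 hermaphrodites, preparations 1, 2 and 3, with RNA of a wild-type mixed reference, which was in channel 1 on every array. The sources used here do not give the genotype, culture or exact age of the late L4 animals, the make-up of the mixed reference or the type of probe. The labels do not say that the preparations came from separate cultures, so a p-value measures only the spread between these preparations, which may be technical. The values are log2 ratios, read here as late L4 over reference because the descriptions put late L4 first. That direction is likely, but no label states it for the values.

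Major sperm protein, or MSP, is a small cytoskeletal protein of nematode sperm. Developing spermatocytes store it in fibrous bodies, and crawling sperm assemble it into filaments that push the pseudopod forward in place of actin. Sperm also release MSP, which acts as a signal that starts oocyte maturation, ovulation and contraction of the gonadal sheath. In hermaphrodites the germ line makes sperm during the fourth larval stage, L4, and then switches to oocytes. The family has many nearly identical members in the genome, so a probe for 1 member may bind RNA of others. The value of a single gene is uncertain for that reason, and the counts below may count 1 RNA signal under several genes.

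All 30 features kept their symbol in the current RefSeq gene table, which lists 35 msp-numbered genes in assembly WBcel235. The other 5 are *msp-37*, *msp-42*, *msp-52* and *msp-71*, annotated as pseudogenes, and the protein-coding *msp-58*, and they were not analysed here. Of the 30 genes, 13 lie on chromosome II and 17 on chromosome IV, and 28 of the 30 gene models are 384 bases long. The exceptions are *msp-32*, with a model of 360 bases, and *msp-74*, with one of 234 bases.

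Transcripts of 29 of the 30 msp genes were more abundant in late L4 than in the reference and 0 were less abundant (limma, Benjamini-Hochberg adjusted p under 0.05 over all rows; 0 were lower at an unadjusted p under 0.05 as well). In the same fit 12% of all rows were higher and 10.8% were lower. Were the ratios to run the other way, these would be 29 lower and 0 higher members, and every higher and lower below would change places. The median of the 30 mean log2 ratios was 2.98, which is 7.89-fold, while the median over all rows was -0.03. All 29 higher genes were at least 2-fold higher, and 27 were at least 4-fold higher. Of all rows, 8.6% passed an adjusted p of 0.05 and were at least 2-fold higher, and 2.52% passed and were at least 4-fold higher. Counted in the same way, 15 of the 30 genes and 0.793% of all rows were at least 8-fold higher. Thus 9.8% of the rows called at that level were msp genes. Adjusted p-values of the 29 genes ran from 6.05e-08 for *msp-56* and *msp-33* to 0.000489 for *msp-49* (limma). When the variance was not moderated, which leaves 2 degrees of freedom per gene, 0 members passed in limma and 28 had an unadjusted p under 0.05.

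The shift was present on each array. Log2 ratios were above 0 for 30 members on prep 1, for 29 on prep 2 and for 29 on prep 3, and above 1 for 29, 28 and 29 members. In the order of all 19292 rows by mean log2 ratio, 12 msp genes were among the first 100, 18 among the first 200 and 27 among the first 500. The members held places 17 to 871 in that order, apart from *msp-38* at place 8803; with the direction turned they would fill the low end of the order instead. Because whole animals were used, more sperm-forming cells and more msp RNA per cell cannot be told apart.

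**Figure D1:**
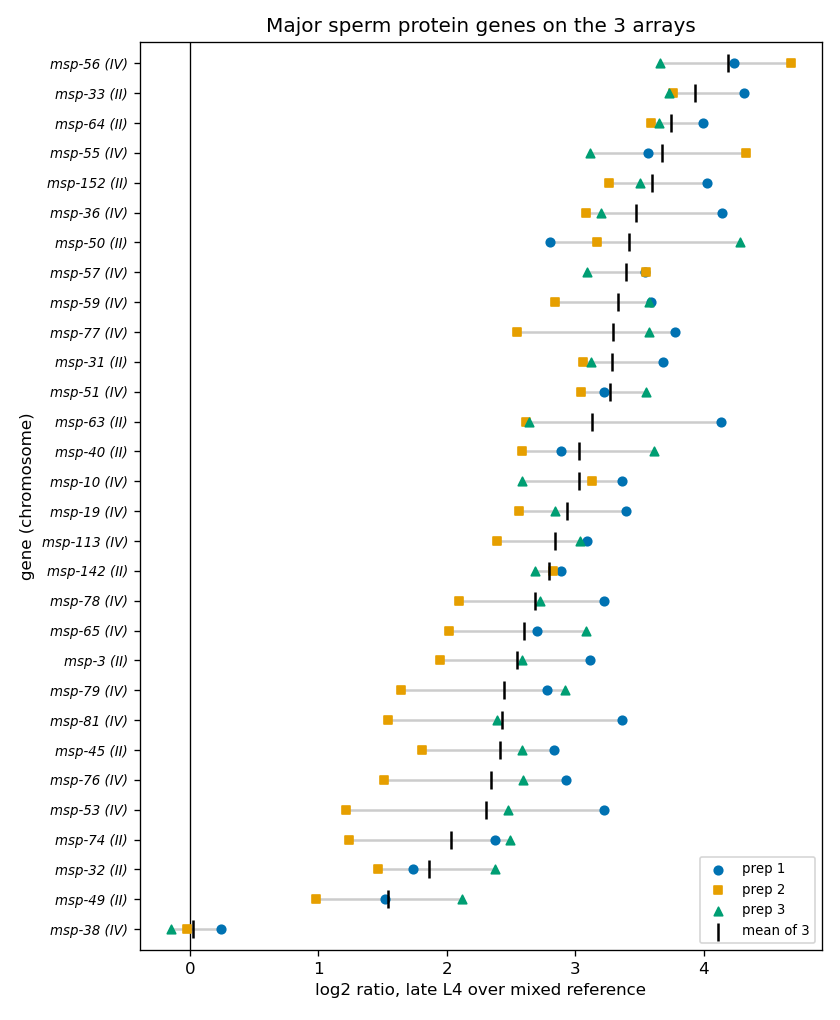
Log2 ratio of late L4 over mixed reference (x axis) for each of the 30 msp genes (y axis, with chromosome in brackets), with 1 symbol for each RNA preparation and a black tick at the mean of the 3. Of the 30 genes, 29 lie to the right of 0 on every array, and *msp-38* has values on both sides of 0.

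**Figure D2:**
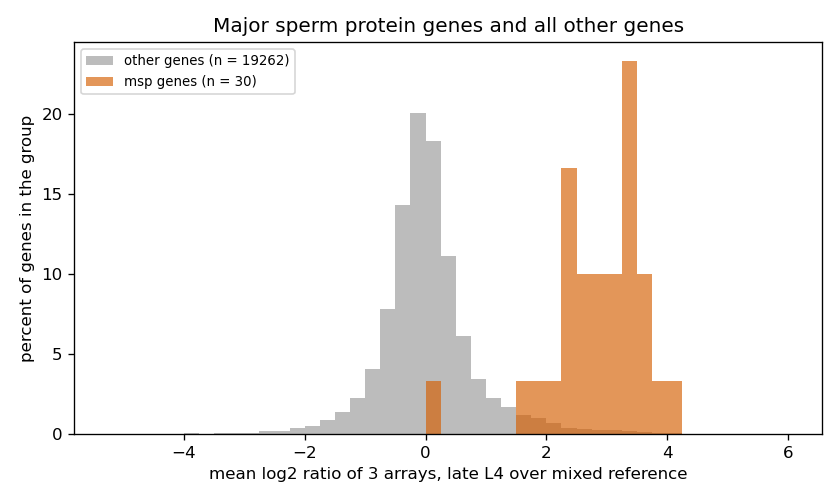
Percent of genes in each group (y axis) by mean log2 ratio of the 3 arrays (x axis, bins of 0.25 log2 units) for the 30 msp genes and the 19262 other rows. The msp genes centre on 2.98 and the other rows on about 0, and the single msp gene in the bulk of the other rows is *msp-38*.

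The 6 members with the highest ratios had means from 11.1-fold to 18.3-fold above the reference, 3 of them on chromosome II and 3 on chromosome IV. *msp-56* (K07F5.3) gave log2 ratios of 4.23 with prep 1, 4.68 with prep 2 and 3.66 with prep 3, a mean of 4.19 ± 0.51 (SD, n = 3; limma, adjusted p = 6.05e-08). *msp-33* (R05F9.8) had 4.31, 3.76 and 3.73, a mean of 3.93 ± 0.33. For both genes each of the 3 values was above 3, that is above 8-fold. *msp-64* (ZK1248.6) had 3.99, 3.59 and 3.65. *msp-55* (C09B9.6) had 3.57, 4.33 and 3.11. These differ in which preparation was highest: prep 1 for *msp-33* and *msp-64*, prep 2 for *msp-56* and *msp-55*. *msp-152* (ZK546.6) had log2 ratios of 4.02, 3.26 and 3.50, and *msp-36* (C04G2.4) had 4.14, 3.08 and 3.20. With *msp-57*, *msp-31* and *msp-51*, these 6 form the 9 members that were at least 8-fold higher on every array, where 0.321% of all rows were.

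At the other end of the family the ratios were smaller but, for 5 of the 6 lowest members, still past the threshold. *msp-38* (K08F4.8) gave log2 ratios of 0.24 with prep 1, -0.02 with prep 2 and -0.15 with prep 3. Its mean was 0.02 ± 0.20 (SD, n = 3) and did not pass (limma, adjusted p = 0.96), with a 95% interval from -0.49 to 0.53 log2 units. That interval lies below the lowest single value of any other member, 0.98, and the gene's array values do not overlap those of any other msp gene. Leaving out prep 1 turned its mean to -0.08.

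The next lowest member was *msp-49* (C34F11.6), with log2 ratios of 1.52, 0.98 and 2.12 and a mean of 1.54 ± 0.57, or 2.91-fold (SD, n = 3; limma, adjusted p = 0.000489). *msp-32* (R05F9.3) had 1.74, 1.46 and 2.37, and *msp-74* (F09C12.7) had 2.37, 1.24 and 2.49. The 2 genes whose models are not 384 bases long were thus among the 4 lowest members of the family. *msp-53* (R13H9.4) had log2 ratios of 3.22, 1.22 and 2.48, and its SD of 1.01 was the largest in the family. *msp-76* (ZK1251.6) had 2.93, 1.51 and 2.60. All 5 of these genes were lowest on prep 2.

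The 18 members between these ends had mean ratios from 5.32-fold for *msp-45* to 10.7-fold for *msp-50*, and single log2 ratios from 1.55 to 4.28. The tightest values in the family were those of *msp-142* (K05F1.2), 2.89, 2.83 and 2.68, with an SD of 0.10. *msp-50* (C34F11.4) had 2.81, 3.17 and 4.28 and was the only one of the 7 highest members with its top value on prep 3. *msp-19* (F36H12.7) had 3.40, 2.56 and 2.84, *msp-40* (C33F10.9) had 2.89, 2.58 and 3.61, and *msp-3* (F26G1.7) had 3.11, 1.95 and 2.58. For *msp-77* (F32B6.6) the log2 ratios were 3.77, 2.54 and 3.57, and for *msp-45* (F58A6.8) they were 2.84, 1.81 and 2.58. In 4 of these last 5 genes prep 1 gave the highest value, and in all 5 prep 2 gave the lowest.

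The 3-array means of the 29 higher genes had an SD of 0.64 log2 units between genes. Single array values within a gene had an SD of 0.57, pooled over the same genes. A mean of 3 arrays varies less than single values, so the pooled SD overstates the spread of a mean. The limma standard errors of these means ran from 0.24 for *msp-142* to 0.32 for *msp-53*. Ordered by mean, each of the 28 steps from 1 gene to the next was smaller than that pooled SD; the largest, from *msp-32* to *msp-49*, was 0.32. Removing each array's median brought the pooled SD to 0.46. Sorting this many means makes small steps likely by itself, so the order is a description and separates no gene from the next, apart from the step of 1.52 from *msp-49* to *msp-38*. Of the 406 pairs that these 29 genes form, 135 had array values that did not overlap. The same share was not taken for other genes, so the count does not show that msp genes differ among themselves more than others. A ratio to the reference is not a transcript level, so the order does not rank the genes by abundance.

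The family differed between preparations. With prep 1 the 30 genes had a median log2 ratio of 3.22, with prep 2 it came to 2.57 and with prep 3 to 2.98, while the all-row medians were 0.01, -0.10 and -0.06. The SD of all measured log2 ratios ran in the same order, at 0.97 on prep 1, 0.85 on prep 2 and 0.89 on prep 3. The difference between preparations is thus not shown to be particular to the msp genes, and the part of array scale was not tested. Prep 1 gave the highest of the 3 values for 19 members and prep 2 the lowest for 22 members. Only *msp-56*, *msp-55* and *msp-57* were highest on prep 2. Among the 29 higher genes the order held in part from array to array: prep 2 correlated across genes with prep 1 at a Pearson coefficient of 0.72 (Spearman 0.72) and with prep 3 at 0.71 (Spearman 0.78), while prep 1 against prep 3 gave 0.52 (Spearman 0.55). These are descriptions over 29 genes that share arrays, a reference and possibly probe targets. Each preparation was on 1 array, so array and preparation cannot be told apart.

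Along the chromosomes the 30 genes fall into 4 groups when members with fewer than 100 other coding genes between them are joined, and the ratios were high in each. On chromosome II, the median log2 ratio was 2.79 for the 10 genes from *msp-3* to *msp-50*, and the 3 genes *msp-63*, *msp-142* and *msp-64* had one of 3.13. On chromosome IV, the 8 genes from *msp-55* to *msp-65* had a median of 3.10, and the 9 genes from *msp-76* to *msp-38* one of 2.68. In the first 3 groups all members were higher, and in the last 8 of 9 were. *msp-38* is the last member in order on chromosome IV, and the member before it, *msp-36*, had a mean of 3.47. The whole-chromosome medians were 3.03 for the 13 genes on II and 2.93 for the 17 on IV.

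Members that lie next to each other did not always have like ratios. The gene order gives 11 pairs with at most 2 other coding genes between them. In 3 of these pairs the array values did not overlap. Among all 406 pairs of the 29 higher genes 135 did not overlap, so lying close together does not set these pairs apart. *msp-33* and *msp-32* have no coding gene between them, and *msp-32* was lower by 2.58, 2.29 and 1.36 log2 units on preps 1, 2 and 3. *msp-50* was above *msp-49* by 1.29, 2.19 and 2.16, with 1 gene between them. The third pair was *msp-10* (K07F5.2; 3.36, 3.13 and 2.59) and *msp-56*, which was higher by 0.87, 1.55 and 1.07. Within arrays, the difference kept its sign on all 3 arrays in 9 of the 11 pairs, these 3 included. The same count was not taken for other pairs of genes, so it does not set the close pairs apart. With 3 arrays an exact two-sided sign-flip test cannot go below p = 0.25, and the pairs are given as a description.

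In the other 8 pairs the array values overlapped. *msp-31* (R05F9.13) had log2 ratios of 3.68, 3.06 and 3.12, which ran parallel to those of *msp-152* with an SD of the difference of 0.09. *msp-63* (K05F1.7) had 4.13, 2.61 and 2.64 and stood above *msp-142* on prep 1 alone. *msp-57* (R13H9.2) had 3.54, 3.55 and 3.09, close to *msp-55* on preps 1 and 3 and above *msp-53* by 2.33 on prep 2. In the last comparisons, of *msp-63* with *msp-142* and of *msp-57* with *msp-53*, 1 array set most of the difference. *msp-51* (ZK354.5) had 3.22, 3.04 and 3.55, against 3.09, 2.39 and 3.04 for *msp-113* (ZK354.4). *msp-59* (ZK354.11) had 3.59, 2.84 and 3.57, against 2.70, 2.02 and 3.09 for *msp-65* (ZK354.1). In both pairs the first gene was higher on every array. *msp-79* (T13F2.10) had 2.78, 1.64 and 2.92, against 3.22, 2.10 and 2.73 for *msp-78* (T13F2.11). *msp-81* (K07F5.1) had 3.36, 1.55 and 2.39, almost equal to *msp-10* on prep 1 and below it by 1.58 on prep 2.

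Coding genes directly beside an msp gene were also often higher in late L4. The next coding gene on either side that is not itself an msp gene was measured for 37 different genes, of which 20 (54.1%) were higher, 3 were lower and 14 did not pass, with a median log2 ratio of 0.85. Over all rows 12% were higher and 10.8% lower, so the count of 3 lower neighbours does not set the neighbours apart. The comparison was chosen after the values of the msp genes were known, and neighbours that are themselves sperm genes were not set aside. Among the neighbours, *ssp-36*, which was higher, and *ssp-32*, which did not pass, are counted again below with the other MSP-domain genes. *srb-13*, of a chemoreceptor family and next to *msp-45*, had log2 ratios of 3.64, 3.39 and 4.03, above the values of *msp-45* on each array. *sss-1*, next to *msp-77*, had 3.53, 2.94 and 3.56, and *acdh-8*, named as an acyl-CoA dehydrogenase and next to *msp-63*, had 3.54, 2.56 and 3.12. These and ZK1248.5, next to *msp-64* (3.46, 2.69 and 2.86), were the 4 neighbours at least 8-fold higher. Their values lay within the range of the msp genes and, like those of most msp genes, were lowest on prep 2 in all 4.

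The 3 lower neighbours, no larger a share than that of lower rows in the whole fit, had ratios opposite in sign to the msp gene beside them. *cav-1*, a caveolin gene expressed in the oocyte-forming germ line, lies beside *msp-78* and had log2 ratios of -4.01, -2.17 and -1.89, with a mean of -2.69 that was -2.03 without prep 1. *nlp-47*, a neuropeptide-like gene next to *msp-51*, had -1.77, -1.70 and -2.24. *gst-30*, a glutathione S-transferase gene next to *msp-31* and *msp-152*, had -0.74, -0.67 and -0.81 (limma, adjusted p = 0.034), a call lost without any 1 preparation (adjusted p from 0.10 to 0.14). Both measured neighbours of *msp-38* had means above its own: *gst-4* had 0.51, 1.31 and 0.68 and passed, and *dhs-12* had 0.30, 1.16 and -0.16 and did not. High and low values thus lay side by side within the msp groups.

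**Figure D3:**
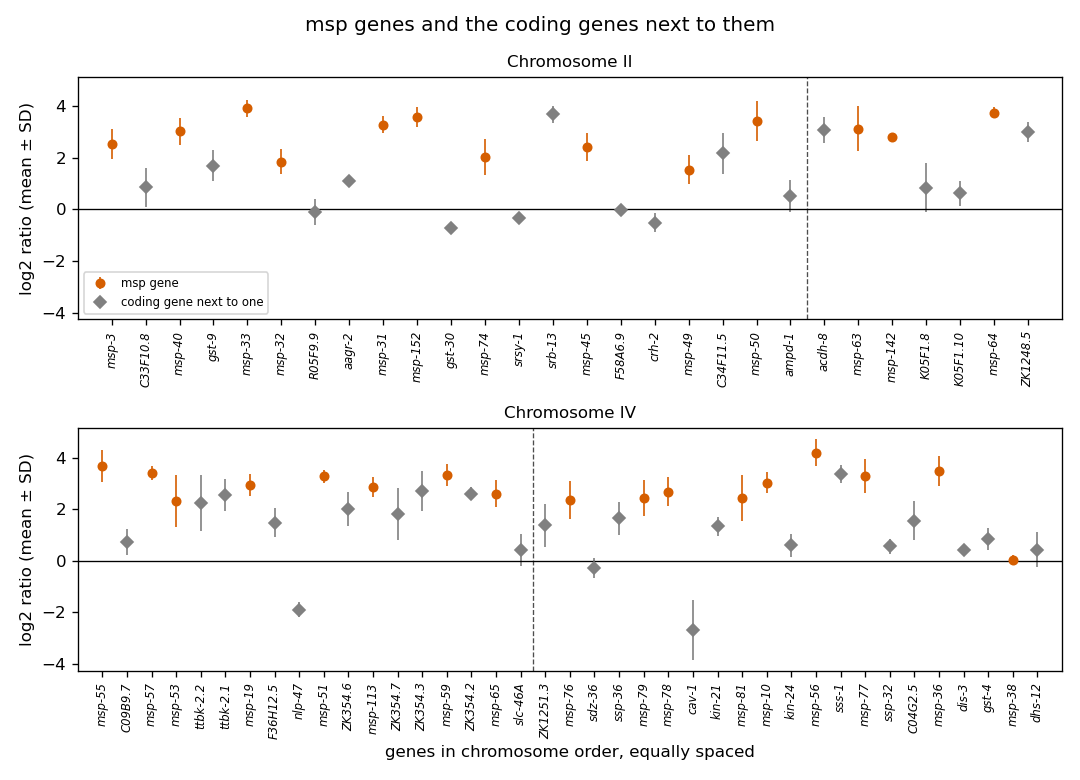
Mean log2 ratio ± SD of 3 arrays (y axis) for the 30 msp genes (circles) and the 37 measured coding genes next to them (diamonds), in chromosome order and equally spaced (x axis), with dashed lines between groups of members separated by 100 or more coding genes. The msp genes are all high except *msp-38* near the end of chromosome IV, while the genes next to them range from -2.69 for *cav-1* to 3.69 for *srb-13*.

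Other sperm and somatic proteins carry an MSP-like domain, and the genes of most of those measured were higher too. Of 16 measured genes of the ssp and msd families together with *vpr-1*, 11 were higher, 0 lower and 5 did not pass, against 12% higher and 10.8% lower over all rows (0 lower also at an unadjusted p under 0.05, limma), with a median log2 ratio of 1.64. *msd-4* had log2 ratios of 3.18, 3.46 and 4.18, *ssp-16* had 3.91, 3.20 and 3.42 and *msd-3* had 3.26, 2.90 and 3.09, values within the range of the msp genes. The other msd genes were near 0, with means of 0.09 ± 0.33 for *msd-2* and -0.17 ± 0.46 for *msd-1* (SD, n = 3). *vpr-1*, which encodes a broadly expressed membrane protein whose MSP domain is secreted, had 0.68, 0.10 and 0.57 and did not pass (limma, adjusted p = 0.22).

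Genes that act with MSP in sperm were measured for 8 of 17 members of a list of fibrous body and cytoskeleton genes, of which 5 were higher and 0 lower (0 also at an unadjusted p under 0.05, limma), with a median of 1.94; over all rows 12% were higher and 10.8% lower. *gsp-3* and *gsp-4* encode sperm-enriched PP1 phosphatases needed for MSP-based movement. *gsp-4* had log2 ratios of 3.20, 3.45 and 3.85 and *gsp-3* had 3.66, 2.69 and 3.30. *spe-18*, needed to assemble MSP into fibrous bodies, had 4.11, 3.41 and 2.74, a mean of 3.42 ± 0.69 (SD, n = 3; limma, adjusted p = 4.90e-07). *spe-26*, a kelch-repeat gene (mean 2.00), and *spe-15*, a myosin VI gene (mean 1.87), also passed. *spe-4*, a presenilin gene of the membranous organelles, had 1.20, 0.70 and 0.08 and did not (adjusted p = 0.089).

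The turning of spermatids into crawling sperm is driven or held back by a further list of genes. Of 9 measured, 2 were higher, 1 was lower and 6 did not pass, counts near the 12% higher and 10.8% lower of all rows. *snf-10*, a transporter of the activation pathway, had log2 ratios of 2.55, 0.66 and 1.67. *spe-8*, a tyrosine kinase gene, had 1.46, 0.44 and 1.20, and it no longer passed when prep 1 (adjusted p = 0.076) or prep 3 (adjusted p = 0.066) was left out. *swm-1*, a protease inhibitor that holds back activation in males, was lower, at -1.47, -1.48 and -1.42 (mean -1.45 ± 0.03, SD, n = 3; limma, adjusted p = 0.000300).

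Among 11 measured regulators of sperm fate and the sperm programme, 2 were higher and 0 lower (0 also at an unadjusted p under 0.05, limma), which is near the 12% and 10.8% of all rows. *spe-44*, a transcription factor of the sperm programme, had log2 ratios of 1.09, 1.42 and 0.94, a mean of 1.15 ± 0.25 (adjusted p = 0.00242). *fbf-2*, a Pumilio-family RNA-binding protein gene of germ line stem cells and the switch to oocytes, had 0.96, 1.45 and 0.61, a call lost without prep 2 (adjusted p = 0.094). *nos-3*, a Nanos-related gene that acts in the same switch, had 0.72, 0.58 and 0.33 and did not pass (adjusted p = 0.12). *elt-1*, a GATA factor known to act on msp promoters, had -0.85, 0.51 and -0.83 and did not pass (adjusted p = 0.38), and *fog-3* (0.03, -0.59 and 0.22) did not either. The highest mean among the regulators was the 1.15 of *spe-44*.

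Oocytes and gonadal sheath cells receive the MSP signal. Of 16 measured genes of its reception, 0 were higher (1 at an unadjusted p under 0.05, limma), 3 were lower and 13 did not pass, with a median of -0.09. With 12% of all rows higher and 10.8% lower, these counts do not set the list apart. *vab-1*, the Eph receptor that binds MSP, had log2 ratios of -0.72, -0.55 and -0.65 and did not pass (adjusted p = 0.064). *oma-2*, a zinc-finger gene of oocyte maturation, was lower at -0.88, -1.48 and -1.40 (mean -1.25 ± 0.33; adjusted p = 0.00145). *efn-4*, an ephrin gene, was lower at -1.42, -1.26 and -0.63 (adjusted p = 0.00449). *inx-14*, a gap junction gene of the germ line, had -0.97, -0.83 and -0.50 (adjusted p = 0.031), a call lost without any 1 preparation (adjusted p from 0.058 to 0.16).

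**Figure D4:**
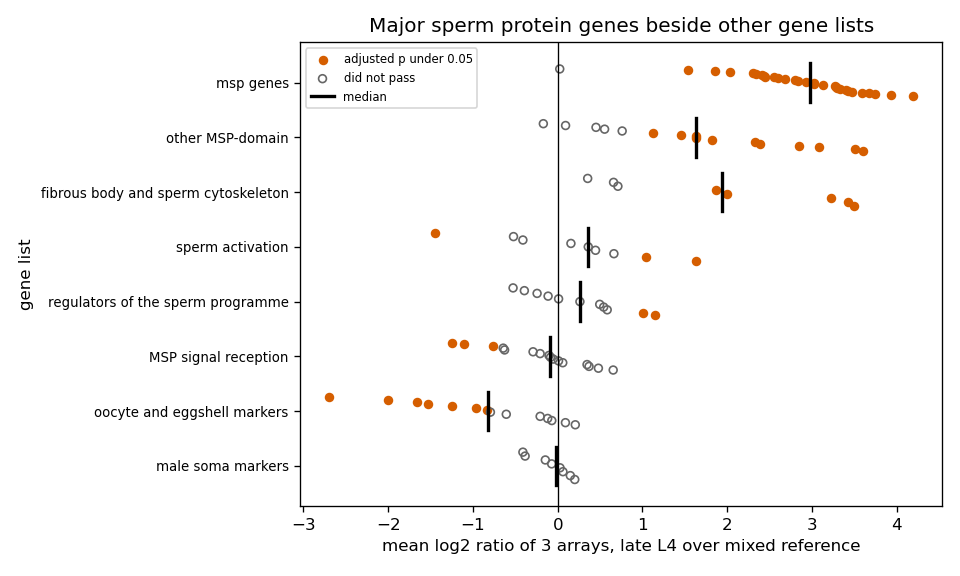
Mean log2 ratio of 3 arrays (x axis) for each measured gene of 8 lists (y axis), with filled circles for genes past an adjusted p of 0.05, open circles for the rest and a black bar at each list's median. The medians run from 2.98 for the msp genes through 1.94 and 1.64 for fibrous body and other MSP-domain genes to -0.82 for oocyte and eggshell markers.

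Markers of the cells that the animals could hold were read from the same fit, in which 12% of all rows were higher and 10.8% lower. The lists are not independent of those above: *gsp-3*, *gsp-4* and *spe-4* are also fibrous body genes, *oma-1* and *oma-2* reception genes, *try-5* an activation gene and *cav-1* a neighbour of an msp gene. Of 13 sperm markers outside the msp family, 11 were higher and 0 lower (0 also at an unadjusted p under 0.05, limma), with a median of 2.74. Their medians by array were 3.40, 2.40 and 2.43, again highest on prep 1 and lowest on prep 2, as was the SD of all measured ratios. Of 14 oocyte and eggshell markers, 7 were lower and 0 higher (0 also at an unadjusted p under 0.05, limma), with a median of -0.82, or -0.49 without prep 3. Of 8 markers of the male soma, limma called 0 in either direction, also at an unadjusted p under 0.05, with a range of means from -0.41 to 0.20. Of 3 yolk genes 1 was lower, a call that was lost without prep 3. Ratios to a mixed reference do not show whether a marker is present or absent, and the part of cell composition in the msp ratios was not tested.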

How the data were processed

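Two-colour arrays of 20000 features were measured for 3 late L4 RNA preparations against 1 mixed reference, with 0 dye-swapped arrays, so a dye effect on a gene cannot be told apart from a difference between the RNAs. The authors deposited 1 log2 ratio per feature and array. When 2 was raised to each value, 100.0% of the resulting ratios were multiples of 0.001 (within 0.05 of a step). The sources used here do not give the dyes, background correction, centring, scale or type of probe. Spot intensities were not analysed, so dim spots could not be filtered, and the number of arrays limits the precision. Measured features numbered 19903, 19840 and 19825 on preps 1, 2 and 3.

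Values were used as deposited. The 19736 features on all 3 arrays were averaged per gene, giving 19292 rows (15112 named genes). Symbols were updated by Entrez ID with the RefSeq table of assembly WBcel235, which was used for names, gene order and model length only. A two-sided test of each row's mean log2 ratio against 0 was made in limma 3.58.1 under R 4.3.3 (functions lmFit, then eBayes), with Benjamini-Hochberg adjustment over all rows. Each gene had 2 residual degrees of freedom and the prior 12.8, at an SD of 0.438. The test leaves out the spread of the reference. On simulated data for this comparison with 19292 genes, 43 of 100 2-fold and 99 of 100 4-fold changes were called, as were 18 of 19092 unchanged genes. A far smaller share of rows was changed there than the 12% higher and 10.8% lower called in the data. The adjustment depends on that share, so these rates may not hold for the data.

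The members and lists were chosen with earlier results of these data known. Array values are given for the 6 highest and 6 lowest members and those that did not pass; other members could be named too. From each other pathway list the 3 called genes with the largest absolute mean are named, filled up by lowest p; further genes, the neighbours and the marker results were chosen after their values were seen. Protein differences between members, part of the naming rule, were not analysed. Alternatives were other centring and scaling, missing-value filters, variance models, features not averaged, named genes only, current symbols, stricter thresholds and leaving out each preparation.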

Additional observations from a re-analysis of the deposited data

How the results depend on the processing

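Each ratio already sets late L4 against the reference on the same array, and no further pairing was possible because all samples belong to 1 group. The count of 29 higher and 0 lower msp genes was the same under centring, scaling, values on at least 2 arrays, robust eBayes, features not averaged, named genes only, current symbols, both stricter thresholds and without each preparation (29 to 29 higher, 0 to 0 lower). Over these settings the 29 genes had a lowest mean of 1.25 and a highest adjusted p of 0.013 (limma). With each gene's own variance and 2 degrees of freedom, limma called 0 msp genes (lowest adjusted p = 0.14) and 0 rows in all, while 28 members had an unadjusted p under 0.05. The family's median was 2.73 to 3.09 without 1 preparation, 3.03 under median centring and 3.02 with scaling. Signs turned for *msp-38* without prep 1 (leaving out 1 preparation gave -0.084 to 0.11), for the yolk median without prep 2 (-0.29 to 0.052) and for the male soma median under median centring (0.026), with scaling (0.0057), without prep 2 (0.033) and without prep 3 (0.0047; -0.16 to 0.033). The cause was not tested. *inx-14* also lost its call with scaling (adjusted p = 0.050). The yolk call was also lost under centring, scaling and robust eBayes. What signal over background limits could not be examined without spot intensities.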
